A study of Mus musculus with 6 samples.

Results

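Expression of 10 nuclear receptor genes was followed in retinal ganglion cells (RGCs), the output neurons of the retina, of embryonic and adult mice. They are the thyroid hormone receptors Thra and Thrb, the retinoic acid receptor-related orphan receptors Rora and Rorb, the retinoid X receptors Rxra and Rxrb, the Rev-Erb receptors Nr1d1 and Nr1d2, and the COUP transcription factors Nr2f1 and Nr2f2. They were chosen by gene name, and earlier results of these data were known when they and the lists below were chosen. Of the 10, 9 had a row among the 10361 gene names of the FPKM table. Its values are fragment numbers scaled to transcript length and to library size. Expression of Rxra was not analysed here.

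Poly-A RNA of 6 libraries from wild-type mice of strain C57/6NCrl was measured, in 3 groups of 2. In adult control the RGCs had been transduced by AAV2 that expressed a scramble shRNA mimic. In adult miR-1247 the AAV2 expressed a miR-1247-5p mimic. E18 libraries (embryonic day 18) came from untreated RGCs. Adult cells from 10 retinas per condition were immunopanned on Thy1 and then sorted for mCherry, which gave near 5000 cells. At E18 near 50000 cells were taken by Thy1 immunopanning with no sort. Age, vector, sorting and cell number therefore cannot be told apart between E18 and adult libraries, and the labels give neither the adult age nor the time of day of collection. Nothing in the labels says that the 2 libraries of a group came from separate animals, so p-values reflect only how far these libraries differ, and that may be technical. In RNA from many cells, fewer cells of a type and less RNA per cell cannot be told apart.

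Nuclear receptors are transcription factors that bind DNA through a shared zinc finger domain, and many of them are switched by a small fat-soluble ligand. Thyroid hormone receptors bind DNA mostly as partners of a retinoid X receptor, repress their targets without hormone and activate them with it, and Thra also encodes an isoform that does not bind hormone. RORs activate and Rev-Erbs repress through the same DNA element, and this opposition sets the rhythm of Bmal1 (Arntl in the table) in the circadian clock. In the retina Thrb is known for directing cone opsin choice, Rorb for rod and horizontal cell formation, and the COUP factors for patterning the eye along its dorsal to ventral axis.

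The cell type on the labels was checked first. All 16 RGC markers looked for had a row, Rbpms, Pou4f1, Slc17a6 and Thy1 among them, and their summed level was 5751 to 5776 FPKM in E18, 3431 to 3480 FPKM in adult control and 2132 to 2160 FPKM in adult miR-1247 libraries. Adult and E18 libraries also held transcripts of markers of other retinal cells. The 5 amacrine markers with a row (of 11) summed to 309.0 and 323 FPKM in E18, to 675 and 716 FPKM in control and to 923 and 967 FPKM in miR-1247 libraries. The 5 Müller glia and astrocyte markers with a row (of 10) summed to 167 FPKM in both E18 libraries, 1063 and 1409 FPKM in control and 1713 and 1825 FPKM in miR-1247 libraries. Of these, Glul was at 463.5 and 121.8 FPKM in control and at 795.5 and 631.6 FPKM in miR-1247 libraries. Aldoc was at 511 and 530.1 FPKM in control and at 508.6 and 535.5 FPKM in miR-1247 libraries. Of the rod markers 3 of 9 had a row, of the bipolar markers 4 of 9, of the horizontal cell markers 3 of 6, of the progenitor markers 2 of 11 and of the oligodendrocyte markers 1 of 6. Both progenitor markers were higher in E18. Dapl1 was at 14.17 and 14.19 FPKM in E18 and at 0 in all adult libraries. Hes6 was at 38.75 and 35.27 FPKM in E18, at 19.53 and 18.57 FPKM in control and at 19.59 and 22.36 FPKM in miR-1247 libraries. Markers of cones, microglia, vessels and pigment epithelium were not analysed here. Libraries of a group correlated at r of 0.980 to 0.985 across genes, control with miR-1247 libraries at 0.960 to 0.962, and r was 0.692 to 0.701 between E18 and any adult library.

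**Figure D1:**
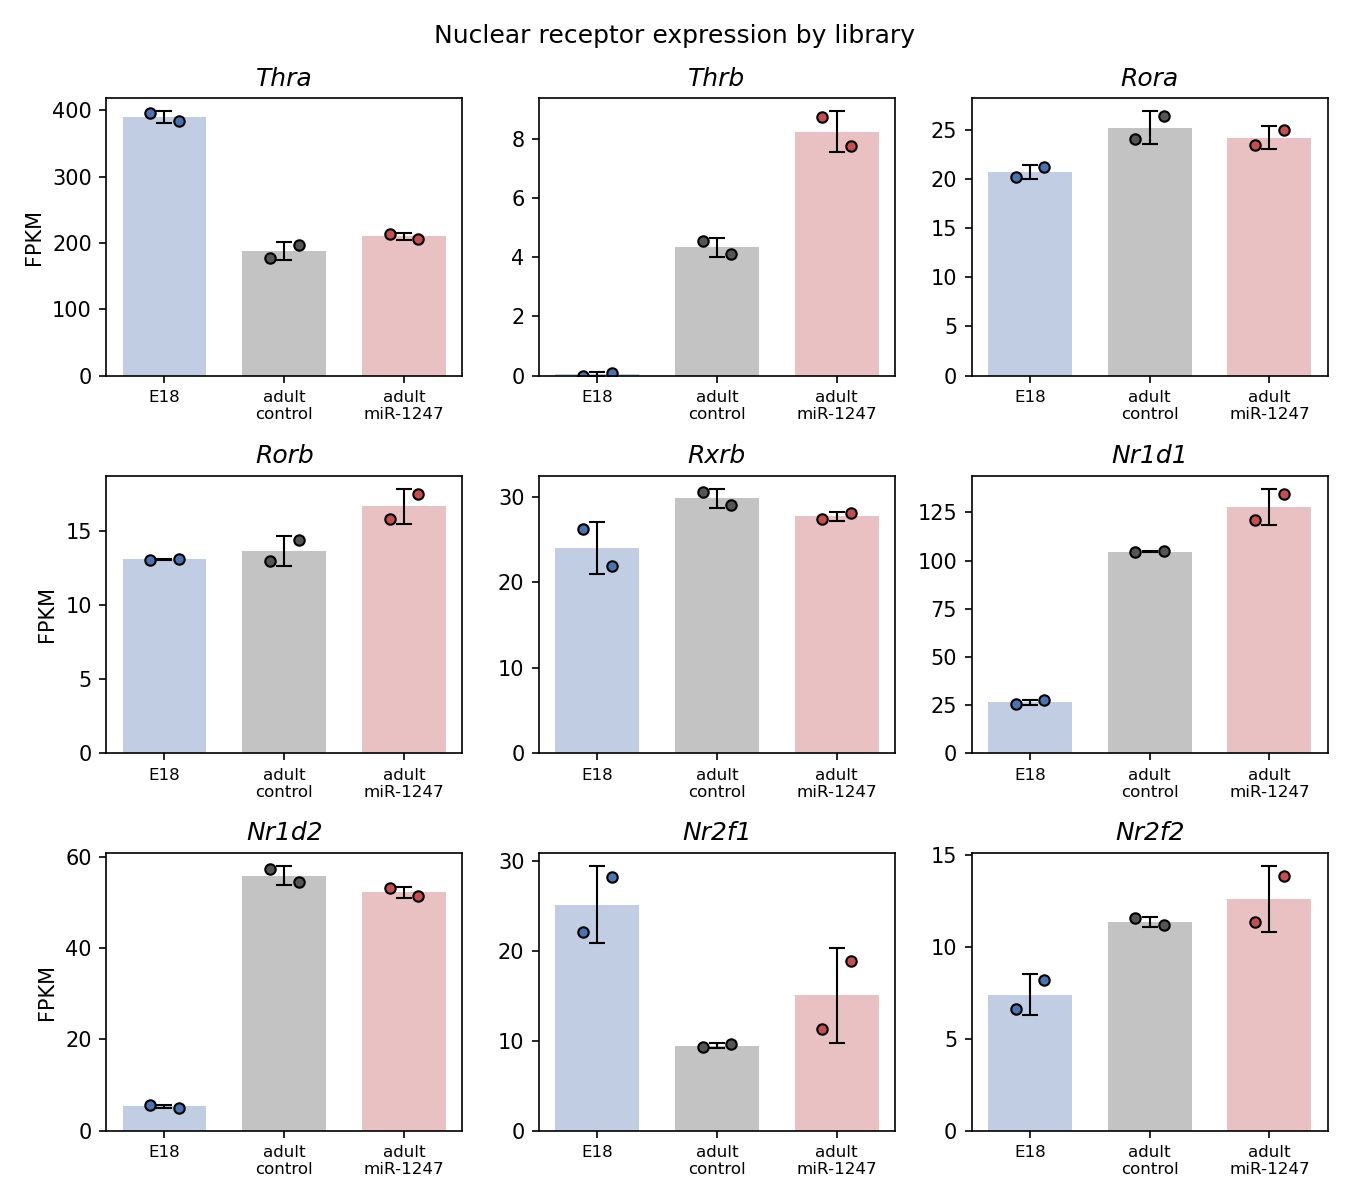
Expression in FPKM (vertical axes, each starting at 0 with its own range) of the 9 receptors in E18, adult control and adult miR-1247 RGCs. Points are libraries, bars are group means and error bars are SDs of 2 libraries. Thrb, Nr1d1 and Nr1d2 sit far lower in E18 than in adult libraries, Thra and Nr2f1 higher, and the Rorb values of E18 and control lie together.

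Differences between E18 and adult control RGCs address which receptors differ between groups that differ in age, vector, sorting and cell number together. Thrb, Nr1d1 and Nr1d2 were much lower in E18 than in adult control RGCs, and Thra and Nr2f1 were higher. Smaller decreases were called for Nr2f2, Rxrb and Rora, and Rorb did not pass the test. In all 2 of 9 receptors rose and 6 fell, where 40.2% and 29.8% of all 9987 tested genes rose and fell (limma on log2(FPKM + 1), Benjamini-Hochberg adjusted p under 0.05). With 70.1% of all genes called, a call alone says little about the receptors, and the sizes below carry the description. The median difference of the 9 receptors was −0.30 (log2), against 0.16 for all genes.

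Thra, the receptor for thyroid hormone that predominates in most neurons, was at 396 and 383.5 FPKM in the E18 libraries, at 178 and 197 FPKM in control and at 214 and 206 FPKM in miR-1247 libraries. Both E18 values exceeded every adult value, and the mean rose from 188 ± 13.6 to 389.8 ± 8.98 FPKM (SD, n = 2 in each group throughout), a log2 difference of 1.05 ± 0.0596 (SE, adjusted p = 1.10e-05). Its annotated gene lies on chromosome 11 at 98629109 to 98661924 of mm39, on the plus strand.

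Thrb, the second thyroid hormone receptor gene, was listed at 0 and at 0.0877 FPKM in the E18 libraries, at 4.55 and 4.11 FPKM in control and at 8.73 and 7.76 FPKM in miR-1247 libraries. The 3 groups did not overlap, with E18 at the bottom and miR-1247 at the top. From control to E18 the log2(FPKM + 1) difference was −2.35 ± 0.178 (adjusted p = 3.96e-05). The pseudocount sets this size, which was −5.01 with a pseudocount of 0.1, and a value of 0 may be a failed estimate. The annotated gene lies on chromosome 14 at 4429815 to 4809435 of mm39, on the minus strand.

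With Thra up and Thrb near 0, the receptor genes for thyroid hormone stood in unlike proportions. Thra was 39.1 and 48.0 times Thrb in the control libraries and 24.5 and 26.5 times in the miR-1247 libraries. In the E18 library that had a Thrb value (0.0877 FPKM) Thra was 4370 times Thrb, a ratio whose precision cannot be given. Of the summed FPKM of the 9 receptors, Thra made up 76.9% and 75.4% in E18 and 40.9% to 44.0% in the 4 adult libraries.

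Nr1d1 encodes Rev-Erb alpha, a repressor of the clock. It was at 25.4 and 27.4 FPKM in E18, at 104 and 105 FPKM in control and at 121 and 135 FPKM in miR-1247 libraries. The E18 values lay far under every adult value, with a log2 difference from control of −1.95 ± 0.0748 (adjusted p = 2.07e-06). Nr1d1 (chromosome 11, 98658752 to 98666188, minus strand) and Thra run toward each other and share 1694 exonic bases, which are 52.3% of the annotated exonic bases of Nr1d1 and 21.4% of those of Thra. The library kit as named does not mark the strand, so reads of the shared stretch cannot be assigned to either gene by strand, and the table gives both genes the same locus coordinates. The measured values moved in opposite directions, and the ratio of Thra to Nr1d1 was 14.0 and 15.6 in E18 and 1.53 to 1.88 in adult libraries.

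Nr1d2 encodes Rev-Erb beta and had the lowest log2(FPKM + 1) difference of the 9, while with a pseudocount of 0.1 Thrb was lower (−5.01 against −3.38 for Nr1d2). It was at 5.54 and 5.02 FPKM in E18, at 57.3 and 54.4 FPKM in control and at 53.1 and 51.3 FPKM in miR-1247 libraries. The mean fell from 55.9 ± 2.07 in control to 5.28 ± 0.363 FPKM in E18, a log2 difference of −3.18 ± 0.0885 (adjusted p = 5.50e-07). The gene lies on chromosome 14 at 4230545 to 4266624 of mm39, near Thrb on the same chromosome. Nr1d1 was 4.59 and 5.45 times Nr1d2 in E18 and 1.82 and 1.93 times in control libraries. Each of the Thra, Thrb, Nr1d1 and Nr1d2 calls held when any library was left out and under every other setting that kept the gene.

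The start regions of Nr1d2 and Thrb are shown because these 2 genes had the lowest differences in E18 and because their start regions hold short receptor or clock motifs. Sequences are RefSeq start regions of GRCm38.p6, 250 bases before to 50 bases after each start, and capitals mark AGGTCA (the core that many nuclear receptors recognise) or CACGTG (the E-box that the clock activators recognise), searched on both strands.
Nr1d2, chr14:18239057-18239356, minus strand: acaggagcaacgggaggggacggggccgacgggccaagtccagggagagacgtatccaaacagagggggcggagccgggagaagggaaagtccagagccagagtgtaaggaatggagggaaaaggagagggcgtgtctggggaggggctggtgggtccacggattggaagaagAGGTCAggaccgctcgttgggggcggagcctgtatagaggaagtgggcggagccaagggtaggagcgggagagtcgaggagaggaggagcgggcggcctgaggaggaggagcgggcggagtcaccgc
Thrb, first start, chr14:17660710-17661009, plus strand: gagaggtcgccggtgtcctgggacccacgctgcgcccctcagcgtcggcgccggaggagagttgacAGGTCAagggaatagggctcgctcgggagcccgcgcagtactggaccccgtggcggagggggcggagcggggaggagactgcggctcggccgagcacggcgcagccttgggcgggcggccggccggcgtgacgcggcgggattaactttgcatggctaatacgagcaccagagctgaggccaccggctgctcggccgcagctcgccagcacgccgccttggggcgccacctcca
Thrb, second start, chr14:17981394-17981693, plus strand: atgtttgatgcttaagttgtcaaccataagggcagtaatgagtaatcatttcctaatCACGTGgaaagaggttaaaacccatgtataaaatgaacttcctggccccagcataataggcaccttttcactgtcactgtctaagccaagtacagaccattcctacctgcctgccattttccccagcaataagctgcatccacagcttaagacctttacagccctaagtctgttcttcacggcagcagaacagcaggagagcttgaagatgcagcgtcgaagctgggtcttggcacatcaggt
AGGTCA began at base −77 from the Nr1d2 start and at −184 from the first Thrb start, and CACGTG at −193 from the second Thrb start. Of 32851 RefSeq start regions of 300 bases, 16.3% held AGGTCA and 7.15% held CACGTG. Among the 14 start regions listed for 9 of the 10 receptor genes (all but Thra), 3 held AGGTCA, the third being that of Rxra, and 1 held CACGTG. A direct repeat of AGGTCA with 4 bases between the copies, the classic element for thyroid hormone receptors, was in none of the 14 and in 0.0152% of all start regions. A match describes letters only and is not evidence of binding. This stretch of chromosome 14 has the opposite orientation in mm39.

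Rora, an activator that shares DNA elements with the Rev-Erbs, was at 20.2 and 21.3 FPKM in E18, at 24.1 and 26.5 FPKM in control and at 23.5 and 25.1 FPKM in miR-1247 libraries. The decrease in E18 was small (log2 difference −0.27 ± 0.0946, adjusted p = 0.0376), and its call was lost without either E18 library, without control library 2 and without either miR-1247 library (adjusted p up to 0.158). These values are sums of 2 rows with the same coordinates (chromosome 9, 68561067 to 69295528 in the file). Control library 1 had 20.6 FPKM in the first row and 3.48 FPKM in the second, and control library 2 had 15.1 and 11.4 FPKM. The division between the rows thus differed between replicates more than their sum did. The annotated gene is on the plus strand, and the identifier of the second row falls among those of minus strand genes, as holds for 1 of the 2 rows in 545 of 577 genes with 2 rows. On the first row alone the difference was −0.20 (adjusted p = 0.318).

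Rorb was at 13.06 and 13.1 FPKM in E18, at 13.0 and 14.4 FPKM in control and at 15.8 and 17.5 FPKM in miR-1247 libraries. Both E18 values lay between the control values, and the log2 difference of −0.06 ± 0.113 did not pass (adjusted p = 0.671). Rora was 1.55 and 1.62 times Rorb in E18 and 1.84 and 1.86 times in control.

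Rxrb, the retinoid X receptor of this set and a shared partner of the hormone receptors, was at 26.2 and 21.9 FPKM in E18, at 30.7 and 29.1 FPKM in control and at 27.4 and 28.1 FPKM in miR-1247 libraries. All E18 values lay under the control values, but the 2 E18 values were further apart than the other pairs. The difference of −0.31 ± 0.106 (adjusted p = 0.0373) was lost without E18 library 2, either control library or either miR-1247 library (adjusted p up to 0.156).

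Nr2f1 and Nr2f2, the COUP factors, moved in opposite directions. Nr2f1 was at 22.2 and 28.2 FPKM in E18, at 9.27 and 9.68 FPKM in control and at 11.3 and 18.8 FPKM in miR-1247 libraries, which were the pair that differed the most among its values. Its log2 difference between E18 and control was 1.31 ± 0.232 (adjusted p = 0.00221), and the call held without any library. Nr2f2 was at 6.60 and 8.17 FPKM in E18, at 11.6 and 11.2 FPKM in control and at 11.3 and 13.9 FPKM in miR-1247 libraries. It fell in E18 by 0.57 ± 0.155 (adjusted p = 0.0150), a call that was lost without E18 library 1 (−0.43, adjusted p = 0.0907) or control library 1 (adjusted p = 0.0613). Nr2f1 was 3.36 and 3.45 times Nr2f2 in E18, 0.802 and 0.867 times in control, and 1 and 1.36 times in miR-1247 libraries. Exons of both genes overlap exons of long noncoding RNA genes on the other strand, over 17.5% of the exonic bases of Nr2f1 (A830082K12Rik) and 13.0% of those of Nr2f2 (B130024G19Rik). Reads of these stretches cannot be assigned by strand either.

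**Figure D2:**
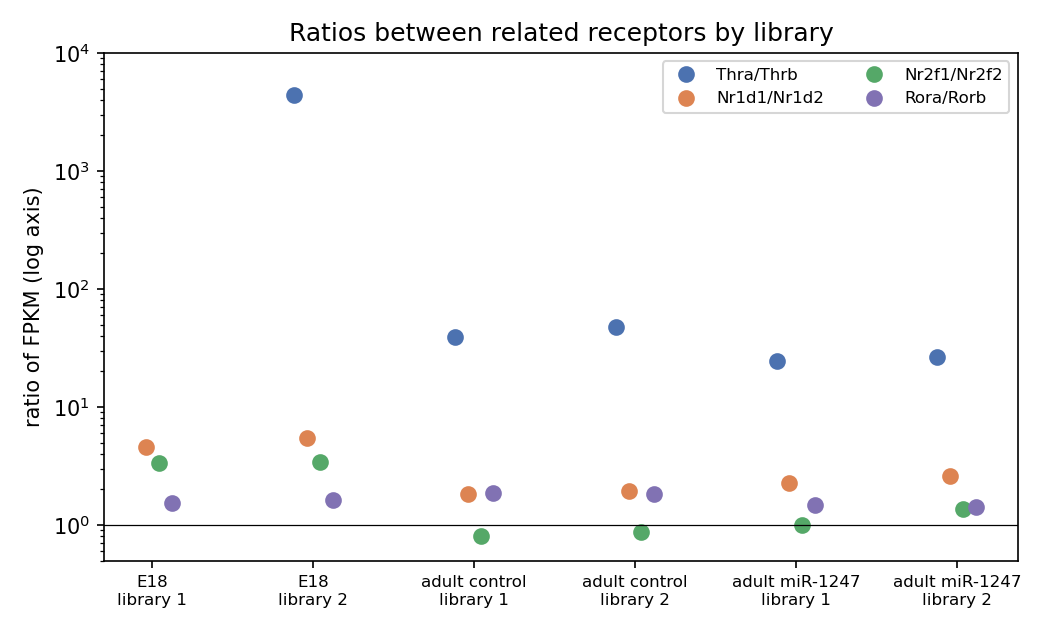
Ratio of FPKM between related receptors in each library (log axis). Thra/Thrb has no value in E18 library 1, where Thrb was listed at 0. Nr2f1/Nr2f2 is above 3 in both E18 libraries and below 1 in both control libraries, while Rora/Rorb stays between 1.43 and 1.86 in all 6.

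FPKM is scaled to transcript length, so levels can be set side by side within a library, with limits. Length scaling does not resolve the exonic bases that Nr1d1 shares with Thra, nor the summed rows of Rora. In adult control the order was Thra, Nr1d1, Nr1d2, Rxrb, Rora, Rorb, Nr2f2, Nr2f1 and Thrb, and values of neighbours in that order did not overlap. In miR-1247 libraries Nr2f1 stood before Nr2f2, and Nr2f1 overlapped with both Rorb and Nr2f2. In E18 Thra stood first, then Nr1d1, Nr2f1 and Rxrb, whose neighbouring values overlapped, then Rora, Rorb, Nr2f2, Nr1d2 and Thrb.

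Beside these receptors, markers of other cells differed between E18 and adult control. Of the 5 amacrine markers with a row 4 fell and 1 rose, and of the 5 Müller glia and astrocyte markers 4 fell and 1 rose. The E18 libraries had Npy at 0 and 0.963 FPKM and Aldoc at 9.25 and 9.13 FPKM, against 17.9 and 38.99 FPKM for Npy and 511 and 530.1 FPKM for Aldoc in control. The amacrine marker that rose was Pax6, at 225.5 and 239.2 FPKM in E18 and at 166.8 and 168.9 FPKM in control. The glial marker that rose was Vim, at 44.49 and 40.97 FPKM in E18 and at 1.596 and 0.6352 FPKM in control. All 16 RGC markers passed, 13 up and 3 down. The neurofilament gene Nefl, among the 13, lost its call under median ratio, equal totals and quantile scaling and with no variance trend, and its sign turned under 2 of the 15 alternatives. These marker counts stand against 40.2% of all genes up and 29.8% down. The part of other cell types in the receptor values was not tested.

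Wider parts of the receptor pathways were described by lists. In the thyroid hormone pathway 4 of 5 response genes fell in E18 and none rose (limma, also at unadjusted p under 0.05; background 29.8% fell), with a median difference of −1.21. Klf9, a transcription factor induced by thyroid hormone and by glucocorticoids, was at 0.703 and 0.468 FPKM in E18 and at 51.6 and 55.02 FPKM in control (−5.10 ± 0.117, adjusted p = 3.11e-07, sum of 2 rows). Thrsp, a thyroid hormone responsive gene of lipid synthesis, was at 0.345 and 0.691 FPKM in E18 and at 35.4 and 37.1 FPKM in control (−4.63 ± 0.152). Nrgn, a calmodulin-binding protein of neurons, fell by 1.21 and Mbp, a myelin protein of oligodendrocytes, by 1.18, while Camk4 (−0.30) did not pass. Nrgn shares 21.7% of its exonic bases with Vsig2 on the other strand. Mbp is also the oligodendrocyte marker of the list above.

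Of 4 hormone transport and binding genes tested 1 rose and 1 fell, where 40.2% and 29.8% of all genes did. Their median difference was 0.61. Slc7a8, an amino acid transporter that also carries the hormone, fell by 1.68. Slc7a5 did not pass, nor did Crym, a hormone-binding protein listed at 0 in control library 2 and in miR-1247 library 1.

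Of 16 circadian genes tested, 11 fell and 4 rose in E18, with a median difference of −1.56, where 40.2% of all tested genes rose, 29.8% fell and the median was 0.16. Hlf was at 2.19 and 3.20 FPKM in E18 and at 109.5 FPKM in both control libraries (−4.92 ± 0.131, adjusted p = 4.78e-07). Dbp was at 5.98 and 5.62 FPKM in E18 and at 151 and 154 FPKM in control (−4.50 ± 0.0682, adjusted p = 6.33e-08). Tef, with Hlf and Dbp a member of the PAR bZIP factors that drive D-box genes of the clock, fell by 3.13, and Bhlhe41, a repressor of clock activators, by 3.55. The 4 that rose were Nfil3 (2.03), Csnk1e (1.30), Arntl (1.12) and Csnk1d (0.93), named here after their values were seen. Nfil3 represses the D-box genes that the PAR bZIP factors activate, Arntl encodes the clock activator BMAL1, and Csnk1d and Csnk1e encode kinases of the PER proteins. A link between the values of these clock genes and those of Nr1d1 and Nr1d2 was not tested. Clock (−2.00) and Cry1 (−0.96), also named after their values were seen, were among the 11 that fell. Bhlhe41, Csnk1d and Dbp share 22.1%, 36.4% and 15.5% of their exonic bases with genes on the other strand.

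Genes of the retinoid pathway differed in both directions, more of them upward. Of 8 tested (of 17 looked for) 5 rose and 2 fell, where 40.2% and 29.8% of all genes did. Their median difference was 0.97, against 0.16 for all genes. Fabp5, which carries fatty acids and retinoic acid, was at 419.7 and 411 FPKM in E18 and at 29.1 and 33.5 FPKM in control (3.69 ± 0.186). Crabp2, a binding protein for retinoic acid, rose by 1.37 and the retinol dehydrogenase Rdh10 by 1.34. Rdh14 (−0.97) and Crabp1 (−0.25) fell, the latter call being lost without each of the 6 libraries.

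Of 25 corepressors and coactivators 10 rose and 8 fell, close to the background of 40.2% and 29.8%. Prmt1, an arginine methyltransferase, rose by 2.52, Gps2, a subunit of the NCoR corepressor complex, by 2.10 and the corepressor Lcor by 1.95, while the coactivator Ppargc1a fell by 2.18. Gps2 shares 23.1% of its exonic bases with Eif5a on the other strand. Of 11 other nuclear receptors with a row (of 39 looked for) 4 rose and 5 fell, again beside 40.2% and 29.8% of all genes. Esrrg, an estrogen-related orphan receptor, was at 4.56 and 5.50 FPKM in E18 and at 38.3 and 35.1 FPKM in control (−2.65 ± 0.111, adjusted p = 3.06e-06). Esrra, its relative, fell by 1.49 and the progesterone receptor Pgr by 0.97. Rxrg, the third retinoid X receptor, rose from 13.0 and 13.3 FPKM in control to 39.7 and 39.5 FPKM in E18 (1.52 ± 0.127, adjusted p = 6.36e-05). Esrra shares 29.6% of its exonic bases with Trmt112.

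**Figure D3:**
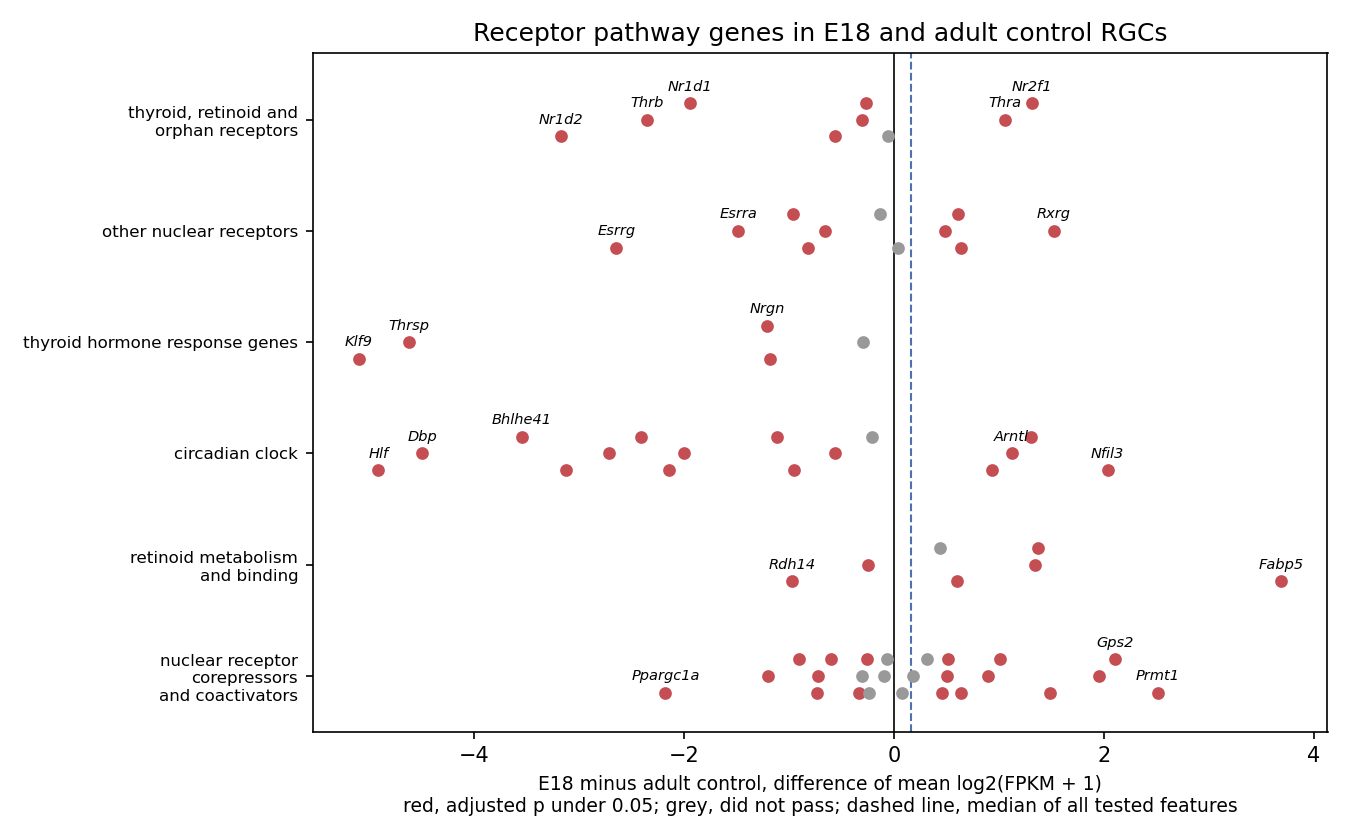
Difference between E18 and adult control in log2(FPKM + 1) for genes of 6 lists, with positive values higher in E18. Red points passed at adjusted p under 0.05, grey points did not, and the dashed line is the median of all tested genes (0.16). Klf9, Hlf, Thrsp and Dbp lie below −4, and Fabp5 above 3.

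The adult groups were compared next, which addresses how receptor expression differed between RGCs given either mimic. The control libraries are those of the comparison above. Of the 9 receptors Thrb alone passed, where 9.75% of all genes were called, 3.53% higher and 6.22% lower. Of these calls 36.2% were higher, a share that was 46.7% under median ratio scaling and 15.1% with equal totals. Its mean was 4.33 ± 0.315 FPKM in control and 8.24 ± 0.688 FPKM in miR-1247 libraries, a log2 difference of 0.79 ± 0.178 (adjusted p = 0.0421). The call was lost when any of the 6 libraries was left out (adjusted p up to 0.171), while the difference stayed between 0.72 and 0.87. It was also lost with the replicate number as a block (adjusted p = 0.0719), with equal totals, with a pseudocount of 0.1 and with only the 4 adult libraries.

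The other 8 receptors did not pass. At unadjusted p under 0.05 the count was 4 higher (Thra, Thrb, Nr1d1 and Nr2f1) and none lower. The share of all genes at that threshold is not given here, and the shares above are of adjusted calls. The count therefore has no background to be read against. Nr1d1 had a difference of 0.28 ± 0.0748 (adjusted p = 0.0616) with both miR-1247 values above both control values. Thra had 0.16 ± 0.0596 (adjusted p = 0.133), and Nr2f1 0.58 ± 0.232 (adjusted p = 0.161), which was 0.24 without miR-1247 library 2 and 0.92 without miR-1247 library 1. Rorb had 0.27 ± 0.113, with both miR-1247 values above both control values (adjusted p = 0.176). Nr2f2 (0.13 ± 0.155), Rora (−0.06 ± 0.0946), Nr1d2 (−0.10 ± 0.0885) and Rxrb (−0.10 ± 0.106) differed by less. The median of the 9 was 0.16, against −0.03 for all genes.

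**Figure D4:**
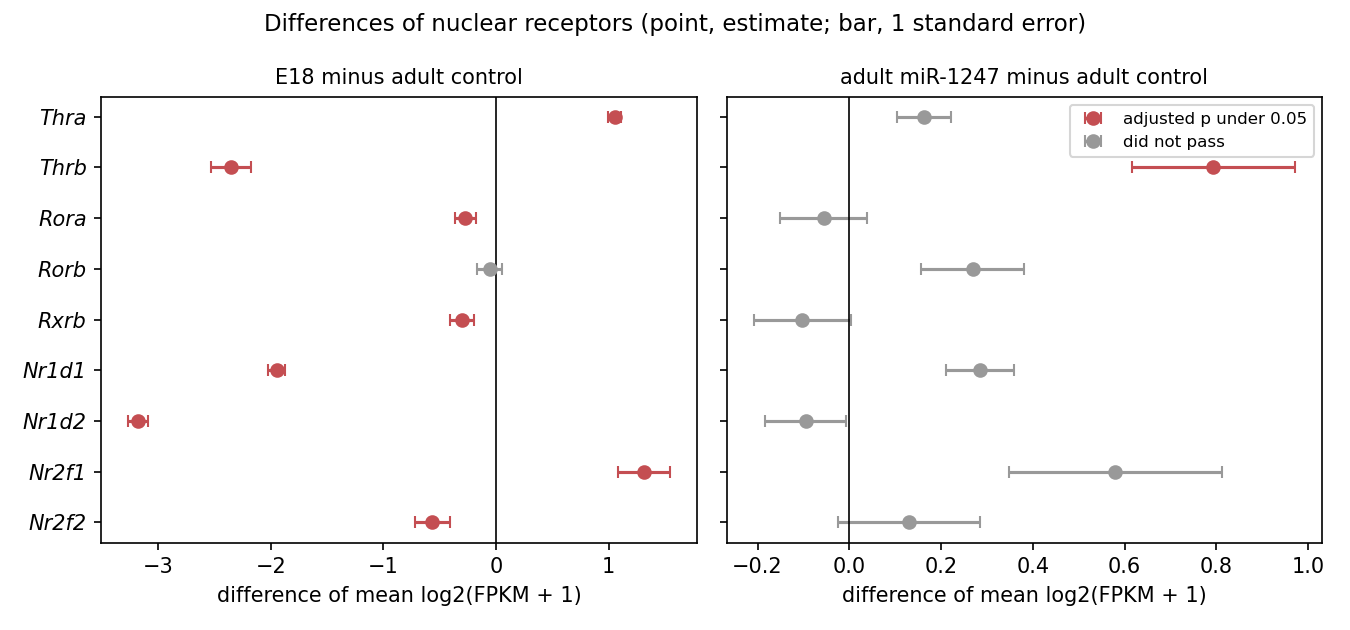
Difference of mean log2(FPKM + 1) for each receptor, E18 minus adult control at left and adult miR-1247 minus adult control at right, with bars of 1 SE and different horizontal ranges. Red points passed at adjusted p under 0.05. At left 8 receptors passed, and at right Thrb alone (0.79 ± 0.178).

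Markers of cell types differed in the same comparison, in which 3.53% of all genes rose and 6.22% fell. Of 16 RGC markers 15 fell and none rose (0 also at unadjusted p under 0.05), and of 5 amacrine markers 2 rose and none fell (0 at unadjusted p). Of 5 Müller glia and astrocyte markers 1 rose, of 2 tested rod markers 1 fell, of 3 horizontal cell markers 1 fell and of 4 bipolar markers 1 fell. Isl1 is on both the RGC and the bipolar list. The part of these differences in the Thrb value was not tested.

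The mature microRNA is shown, as given by RefSeq (GRCm38.p6), with the seed (bases 2 to 8) in capitals, because the vector carries its mimic. Below it stands the stretch of the Nr2f1 3′ UTR with its match to bases 2 to 7 in capitals.
miR-1247-5p: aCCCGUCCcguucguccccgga
Nr2f1 3′ UTR: gcaggccaggcaGACGGGaggagggctggg
In the canonical transcripts of GENCODE vM39, none of the 10 receptors had the 7-base match GGACGGG to the full seed in its 3′ UTR. It was present in 320 of 9778 tested genes with a 3′ UTR, or 3.27%. The 6-base match GACGGG was in the 3′ UTRs of Nr2f1 (from base 122 of 760) and Rxra, and in 9.02% of tested genes. Thrb, whose 3′ UTR has 6215 bases, had neither match.

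Among the pathway lists Rxrg was the other receptor called. It fell from 13.0 and 13.3 FPKM in control to 6.40 and 8.15 FPKM in miR-1247 libraries (−0.78 ± 0.127, adjusted p = 0.0197), a call lost without any 1 library except miR-1247 library 2. Both cellular retinoic acid binding proteins rose. Crabp1 went from 18.1 FPKM in both control libraries to 27.4 and 27.3 FPKM (0.57 ± 0.0924, adjusted p = 0.0197), and Crabp2 from 3.06 and 4.09 to 8.02 and 8.74 FPKM (1.04 ± 0.168, adjusted p = 0.0196). Rdh11 fell by 0.63, the coactivator Ncoa7 by 0.80, and Mbp rose by 0.62. Calls of Crabp1, Rdh11, Ncoa7 and Mbp were lost without any of the 6 libraries, and that of Crabp2 without any except control library 2. Of 16 circadian genes none passed in limma (1 higher and 1 lower at unadjusted p under 0.05). Among all genes 3.53% were called higher and 6.22% lower. The median difference of the 16 was 0.04, against −0.03 for all genes. Dbp was at 151 and 154 FPKM in control and at 153 and 162 FPKM in miR-1247 libraries. Cry1, named after its values were seen, was at 16.24 and 15.07 FPKM in control and at 9.627 and 10.97 FPKM in miR-1247 libraries. Its difference was −0.56 (adjusted p = 0.0524 in limma), and it passed with equal totals and with the filter at a mean of 5 FPKM.

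Set against miR-1247 RGCs in place of control, E18 RGCs had 2 receptors higher and 5 lower, where 69.9% of all genes were called, 41.5% higher and 28.4% lower. Thra was higher by 0.89 ± 0.0596 (adjusted p = 2.25e-05). Thrb (−3.15 ± 0.178), Nr1d2 (−3.08 ± 0.0885), Nr1d1 (−2.23 ± 0.0748) and Nr2f2 (−0.70 ± 0.155) were lower, calls that held without any library. Nr2f1 was higher by 0.73 ± 0.232 (adjusted p = 0.0268), a call lost without either E18 library (adjusted p = 0.0573 and 0.171) and without miR-1247 library 1 (adjusted p = 0.108), and also under median ratio scaling (adjusted p = 0.0724). Rorb was lower by 0.33 ± 0.113 (adjusted p = 0.0370), lost without any E18 or miR-1247 library (adjusted p from 0.0544 to 0.162). With equal totals the Rorb call was lost as well. Rora (−0.22) and Rxrb (−0.20) did not pass, and both passed under median ratio scaling (−0.40 and −0.39). Rxrb also passed without E18 library 1 (−0.33, adjusted p = 0.0370).

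For each receptor the 2 genes with the most similar profile were taken by the distance between log2(FPKM + 1) profiles centred over the 6 libraries. Ddb1 (distance 0.0905) and Siah1a (0.0956) were nearest to Thra, and Prrt4 (0.247) and Wfs1 (0.292) to Thrb. Cplx2 (0.134) and Cdc42ep4 (0.135) were nearest to Nr1d1, and Nfic (0.137) and Cnnm1 (0.165) to Nr1d2. Hs2st1 and Lrp12 stood nearest to Rora, Ercc8 and Fam184a to Rorb, Tmem263 and the locus of B4gat1 and Brms1 to Rxrb, Gna13 and Tcte2 to Nr2f1, and Ctdspl and Cpeb4 to Nr2f2. Wfs1, for example, was at 33.5 FPKM in control, 49.8 FPKM in miR-1247 and 5.10 FPKM in E18 on average. These distances are descriptions over 6 libraries of 3 groups.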

How the data were processed

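Poly-A RNA was sequenced from 6 mouse RGC libraries. Per the submitters' processing notes, the authors mapped reads to mm39 with HISAT2 and computed FPKM with Cufflinks and Cuffdiff, and versions are not given in the sources used here. In the FPKM table deposited by the authors each library has its own column, and 1e-05 had been added to each value, which was taken off. The deposited log2 ratios of group means, by the authors, were within 0.00206 of ratios recomputed from the FPKM values and were not used further. Read counts are not part of the files used here, so depth is unknown and no counting interval is given.

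Different rows of a gene name were summed, and names with the same rows were taken once. The 9987 features with a mean of at least 1 FPKM were fitted in limma 3.58.1 (R 4.3.3) as log2(FPKM + 1), with 3 group means over all 6 libraries and a variance trend. All 9 receptors passed this filter. P-values are two-sided and adjusted over all features (Benjamini-Hochberg), called at 0.05. Fold changes on this scale understate changes of low genes. Annotation was GENCODE vM39 on mm39. Python 3.11.15, pandas 2.3.3, NumPy 2.4.6 and Matplotlib 3.10.9 handled tables and figures.

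The members and lists were chosen with earlier results of these data known. All receptors were named, then up to 4 called genes of each list with the largest absolute difference, and the 2 genes nearest to each receptor. Some genes that this rule names are not reported here and are not drawn. Other scalings, pseudocounts, filters, rows kept apart, no variance trend, 4 libraries, a replicate block and leaving out each library were tried. Same-numbered libraries had no visible shared shift, which does not settle whether they were paired.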

Additional observations from a re-analysis of the deposited data

How the results depend on the processing

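Counts of genes called stayed within 1.5 times under every alternative run for E18 against adult control and for E18 against adult miR-1247, and so did the counts of receptors called. For adult miR-1247 against adult control, 974 genes were called. This was 343 with no variance trend, 347 with only the 4 libraries compared, 584 with the replicate block and 121 to 242 without 1 library. The 1 receptor called became 2 under median ratio scaling (Thrb and Nr1d1) and 0 with equal totals, a pseudocount of 0.1, rows kept apart, only the 4 libraries compared or the replicate block. It was also 0 with a filter at a mean of 5 FPKM, which removes Thrb, and 0 to 0 without 1 library. In the settings with 0 calls that kept both libraries of each group compared, 2 to 6 receptors had an unadjusted p under 0.05 in limma. The share of all genes at that threshold is not given here. The cause of these changes in calls was not tested.

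Deviations of same-numbered libraries correlated at -0.01 to 0.00 between groups. Same-numbered libraries thus had no visible shared shift, which cannot show whether they were prepared together. The replicate block changed no receptor call other than Thrb in the adult comparison. Signs turned in receptors that had not passed. Rorb in E18 against control ranged from -0.13 to 0.0139 without 1 library. In the adult comparison Rora ranged from -0.12 to 0.0085 and Nr2f2 from -0.0039 to 0.27. Rora in E18 against miR-1247 was 0.24 on its first row alone. Scaling shifted all genes together. The median gene differed by 0.16 between E18 and control as deposited and by 0.02 under median ratio scaling, where 49.9% of calls were higher in E18 in place of 57.4%. In the adult comparison 36.2% of calls were higher as deposited, 46.7% under median ratio scaling and 15.1% with equal totals. Depth is unknown, so the precision of Thrb at E18 cannot be given.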
